A study of Mus musculus with 6 samples.

Results

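The circadian clock genes Per1, Per2, Per3, Cry1, Cry2, Arntl, Clock, Dbp, Tef and Nfil3 were examined in mouse bone marrow cells exposed to high potassium. They were taken by symbol from the deposited expression table, where all 10 were found among 19162 genes, and all 10 carried enough counts to be tested. Bone marrow cells of C57BL/6J mice were grown for 4 days with GM-CSF at 40 ng/mL, a cytokine (granulocyte-macrophage colony-stimulating factor) that drives the growth and maturation of myeloid cells. The KCl group received 34.7 mM of added potassium chloride during the culture, and the control group received none. Each group had 3 libraries, numbered 1, 2 and 4. The series title calls the cells BM-MDSCs, that is, bone marrow-derived myeloid-derived suppressor cells, while the labels call them bone marrow cells and record no sort. No sample with another salt or solute at equal osmolality was analysed here, and the hour at which cells were harvested is not stated in the sources used here. Whether the replicates are separate mice or cultures is not recorded in the labels. The p-values therefore rest on differences among these libraries, which may be technical.

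The mammalian clock is a transcriptional feedback loop that runs in almost every cell. CLOCK and ARNTL (also called BMAL1) form a dimer that binds E-boxes and activates the Per and Cry genes, whose protein products enter the nucleus and repress that dimer. A second loop runs through the nuclear receptors of the REV-ERB and ROR families, which repress and activate Arntl through ROR elements, and a further arm runs through DBP, TEF and HLF, which activate D-box genes, and NFIL3, which represses them. In myeloid cells the clock is known to time the release of monocytes and neutrophils and the strength of inflammatory responses.

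Library totals were 17814232 to 18933948 counts in KCl and 14118724 to 21694831 in control, and the 10 clock genes together held 5073 to 6014 counts in KCl and 3928 to 5312 in control. Before any result, the replicate 4 libraries need a remark. The mean level of KCl 4 and control 4 was set against that of the remaining 4 libraries in 8231 genes whose mean count reached 300. The log2 ratio had an SD of 0.00953 across these genes. Counting noise would give 0.0443, and other choices of 2 libraries, 14 in all, gave 0.123 to 0.262. KCl 4 and control 4 were therefore not independent of the other libraries. These levels were scaled by library size alone. With the scaling factors of the later tests, the log2 ratio lay between -0.03 and 0.01 for the clock genes, some of which had mean counts under 300. The sources used here name no step that would produce this dependence, and p-values over all 6 libraries may be too small. Values without replicate 4 are given for the clock genes and for the counts of each gene list.

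In the fit of all 6 libraries, 5 of the 10 clock genes were called higher in KCl than in control: Cry1, Per1, Clock, Per3 and Cry2. Their log2 fold changes (KCl minus control) were 0.31 to 0.39, and in each of them the lowest KCl library lay above the highest control library. In the fit of all 6 libraries none of the 10 fell at the adjusted threshold, and DESeq2 and limma-voom also called 0 lower. None fell at an unadjusted p of 0.05 in edgeR's quasi-likelihood test, where 16.4% of all tested genes were lower. With KCl 1 left out, 1 of the 10 was lower at that unadjusted p, beside 15.8% of all genes. Without both libraries of replicate 1 the number was also 1, beside 14.2%. The remaining 5, Per2, Nfil3, Arntl, Tef and Dbp, did not pass, with overlapping groups and estimates of -0.13 to 0.20. A gene was called where the p of edgeR's quasi-likelihood test, adjusted over all 13326 tested genes by the Benjamini-Hochberg method, was under 0.05. Of all tested genes, 12.4% were called higher and 10.5% lower in KCl, 20.2% had every KCl library above every control library and 18.4% had every KCl library below. The median log2 fold change was 0.25 over the 10 clock genes and -0.00452 over all tested genes.

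The size of these differences was modest and their calls rested on few libraries. Genes called higher over the whole table had a median log2 fold change of 0.51, above the highest clock gene. Leaving out KCl 4 or control 4 left 0 of the 10 called higher, and leaving out KCl 1, KCl 2, control 1 or control 2 left 2. Without replicate 4 altogether, 0 of the 10 passed the adjusted threshold, in a comparison where 0.333% of genes were called higher and 0.126% lower. In that comparison 6 of the 10 were higher at an unadjusted p under 0.05 in edgeR's quasi-likelihood test and 0 were lower; the 6 were Per1, Per2, Cry1, Cry2, Clock and Nfil3. Among all genes of that comparison, 16.2% were higher and 13.6% lower at the same unadjusted p. The log2 fold changes of the 5 genes without replicate 4 were 0.32 to 0.42. Their log2 ratios within replicate 4 were smaller, at 0.27 to 0.34, so leaving it out raised the estimates. Leaving out another replicate number lowered some estimates, down to 0.22 for Clock and 0.25 for Per1.

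The sequences around clock motifs close to the transcription start are shown for the clock genes called higher that had a match. These motifs are the letters through which the loops are known to act. Promoters from 250 bases before to 50 after the start were taken from RefSeq on GRCm38.p6 (the same coordinates as mm10), and 9 of the 10 genes had an entry. Both strands were searched for the E-box CACGTG, the E-prime box CACGTT, the D-boxes TTATGTAA and TTACGTAA, the ROR element core TAGGTCA and the cyclic AMP response element TGACGTCA. Each is printed 5′ to 3′ on the gene's strand, with the motif in capitals and 30 bases on each side of the motifs. The stretches are chr11:69098753-69098818 on the plus strand for Per1, chr4:151044786-151044900 on the minus strand for Per3, chr10:85185079-85185163 on the minus strand for Cry1 and chr2:92434200-92434265 on the minus strand for Cry2.
Per1: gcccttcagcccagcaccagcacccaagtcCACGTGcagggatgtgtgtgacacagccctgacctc
Per3: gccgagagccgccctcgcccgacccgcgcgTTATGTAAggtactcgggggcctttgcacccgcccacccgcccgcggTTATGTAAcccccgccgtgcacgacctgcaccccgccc
Cry1: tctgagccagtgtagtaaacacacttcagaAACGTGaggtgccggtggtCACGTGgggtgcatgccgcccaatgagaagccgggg
Cry2: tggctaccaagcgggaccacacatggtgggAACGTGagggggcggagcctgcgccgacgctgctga

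Cry1 carried an E-prime box, read as AACGTG on its strand, at -79 and an E-box at -60 from the start. Per1 carried an E-box at -166 in 1 of its 2 listed promoters, inside the annotated gene and in no exon, and Cry2 an E-prime box at -166. Per3 carried the D-box TTATGTAA at -205 and again at -158. Of the genes that did not pass, Tef carried an E-box at -127 in 1 promoter and at -138 in the other, Nfil3 a ROR core, read as TGACCTA, at -12, and Arntl a ROR core at 31 in 1 of 2 promoters. The promoters of Clock, which was called higher, and of Dbp, which did not pass, held none of these letters in the windows searched. Among 32851 promoters of the same length, 7.15% held the E-box, 4.68% the E-prime box, 0.938% and 0.119% the D-boxes TTATGTAA and TTACGTAA, 2.61% the ROR core and 1.79% the cyclic AMP response element. A match is a description of the letters and not evidence of binding.

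Scaled to the gene lengths that the authors used, Nfil3 and Cry1 were the most abundant of the 10. These lengths, as implied by the deposited counts and FPKM, decide much of the order and differ from the annotation. They were 22241 bases for Clock, 2904 for Arntl against 7523 exon bases in GENCODE M21, 13330 for Tef against 7867, 5036 for Dbp against 2993, and 2026 for Nfil3. The order below therefore holds for the deposited FPKM alone. In the deposited FPKM (fragments per kilobase of transcript, scaled to the library), Nfil3 averaged 39.4 ± 5.5 in KCl and 35.8 ± 6.4 in control, and Cry1 18.4 ± 1.5 in KCl and 14.3 ± 0.78 in control (SD, n = 3 each). Arntl followed at 5.38 FPKM in KCl and 4.99 in control, then Per1 at 4.53 in KCl and 3.54 in control, and Per2 at 3.21 in KCl and 2.85 in control. Cry2 averaged 2.53 FPKM in KCl and 2.08 in control, Clock 1.94 in KCl and 1.56 in control, and Tef 1.39 in KCl and 1.52 in control. Per3 stood at 0.963 FPKM in KCl and 0.775 in control and Dbp at 0.703 in KCl and 0.779 in control. Neighbours in this order whose libraries overlapped were Arntl with Per1 and Per2 with Cry2 in KCl, and Per1 with Per2, Clock with Tef and Per3 with Dbp in control. The other neighbours were separate in every library of the group named.

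**Figure D1:**
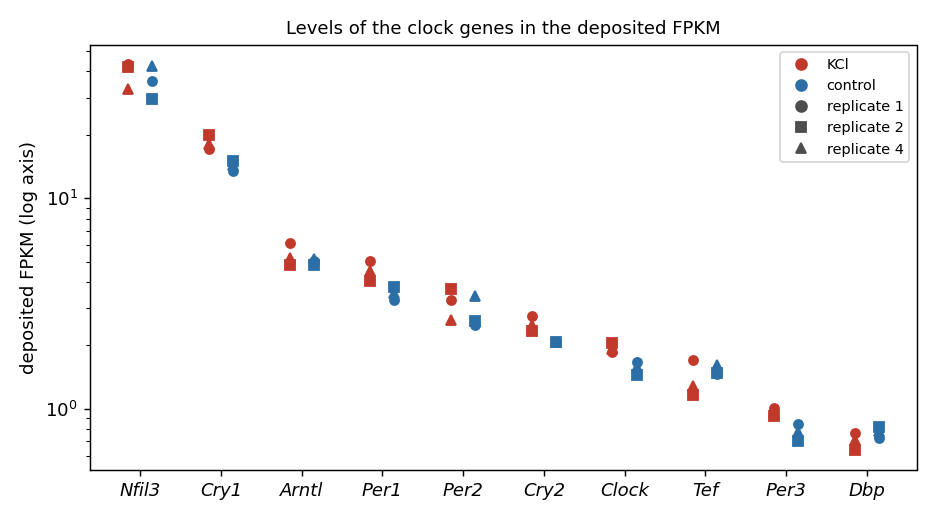
Deposited FPKM (log axis, scaled to the authors' gene lengths) of the 10 clock genes in every library, KCl left of control for each gene, with 1 point per library and the marker giving the replicate number. Nfil3 and Cry1 lie above the other 8 genes in all libraries, and the KCl points lie above the control points for Cry1, Per1, Cry2, Clock and Per3.

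Of the activating pair, Clock was called higher in the fit of all 6 libraries and Arntl did not pass. Clock (chr5:76209868-76304792, minus strand), which encodes a bHLH-PAS factor that also carries histone acetyltransferase activity, had 41.0, 47.3 and 42.6 CPM (counts scaled to library size, here with TMM factors) in KCl 1, 2 and 4 and 36.9, 31.9 and 34.9 CPM in control 1, 2 and 4. All KCl libraries lay above all control libraries. Its log2 fold change was 0.34 ± 0.08 (SE, n = 3 per group) with an adjusted p of 0.0338, and 0.36 with an adjusted p of 0.146 without replicate 4. Arntl (chr7:113207465-113314126, plus strand), its dimer partner, had 17.7, 14.5 and 14.99 CPM in KCl and 14.5, 13.9 and 14.8 CPM in control, with KCl 1 above the rest and the other 5 libraries within a narrow band. Its estimate was 0.13 ± 0.10, with a 95% interval of -0.11 to 0.36 and an adjusted p of 0.457. The difference between the fold changes of Clock and Arntl was not tested.

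The Period genes encode the repressors whose abundance sets the length of the cycle. In the fit of all 6 libraries 2 of the 3 were called higher, and without replicate 4 none was. Per1 (chr11:69095217-69109960, plus strand), a gene known to respond fast to cyclic AMP and glucocorticoid signals, had 41.2, 34.8 and 37.1 CPM in KCl and 27.0, 31.1 and 29.2 CPM in control. The groups did not overlap, with the closest libraries being KCl 2 and control 2, and the log2 fold change was 0.37 ± 0.09 with an adjusted p of 0.0291. Without replicate 4, Per1 was at 0.39 with an adjusted p of 0.142. Per3 (chr4:151003652-151044665, minus strand), the Period gene least required for rhythm in the mouse, had 12.7, 12.2 and 12.1 CPM in KCl and 10.7, 8.88 and 9.81 CPM in control. Every KCl library was again above every control library, by 0.33 ± 0.09 on the log2 scale with an adjusted p of 0.0429, and without replicate 4 by 0.35 with an adjusted p of 0.193. Per3 had 210 to 242 counts per library in KCl and 139 to 224 in control, and its call was the nearest of the 5 to the threshold.

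Per2 (chr1:91415982-91459324, minus strand), whose product is the main Period repressor of the mouse clock, had 19.3, 22.7 and 15.4 CPM in KCl and 14.7, 15.3 and 20.3 CPM in control. Replicates 1 and 2 were higher in KCl and replicate 4 was lower, so the groups overlapped. The pooled estimate was 0.20 ± 0.18 with a 95% interval of -0.24 to 0.65 and an adjusted p of 0.553. In replicates 1 and 2 alone the log2 ratio was 0.49, against -0.39 in replicate 4. Without replicate 4 the fitted log2 fold change was 0.49 with an adjusted p of 0.104. That estimate was above those of Per1 and Per3 in the same comparison, where no Period gene passed.

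Both cryptochromes, which encode the strongest repressors of the CLOCK and ARNTL dimer, were called higher in the fit of all 6 libraries. Cry1 (chr10:85131700-85185064, minus strand) had 51.1, 62.4 and 54.3 CPM in KCl and 40.1, 44.9 and 43.3 CPM in control. The lowest KCl library stood above the highest control library. In the fit of all 6 libraries the log2 fold change of Cry1, 0.39 ± 0.09, was the highest of the 10, with an adjusted p of 0.0277. Without replicate 4 it was 0.42 with an adjusted p of 0.129, and Per2, at 0.49, stood above it. Cry2 (chr2:92403646-92434043, minus strand) had 18.9, 16.7 and 17.2 CPM in KCl and 14.2, 14.2 and 14.3 CPM in control. The control libraries were almost equal and all KCl libraries were above them, by 0.31 ± 0.07 on the log2 scale with an adjusted p of 0.0284, and without replicate 4 by 0.32 with an adjusted p of 0.159.

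**Figure D2:**
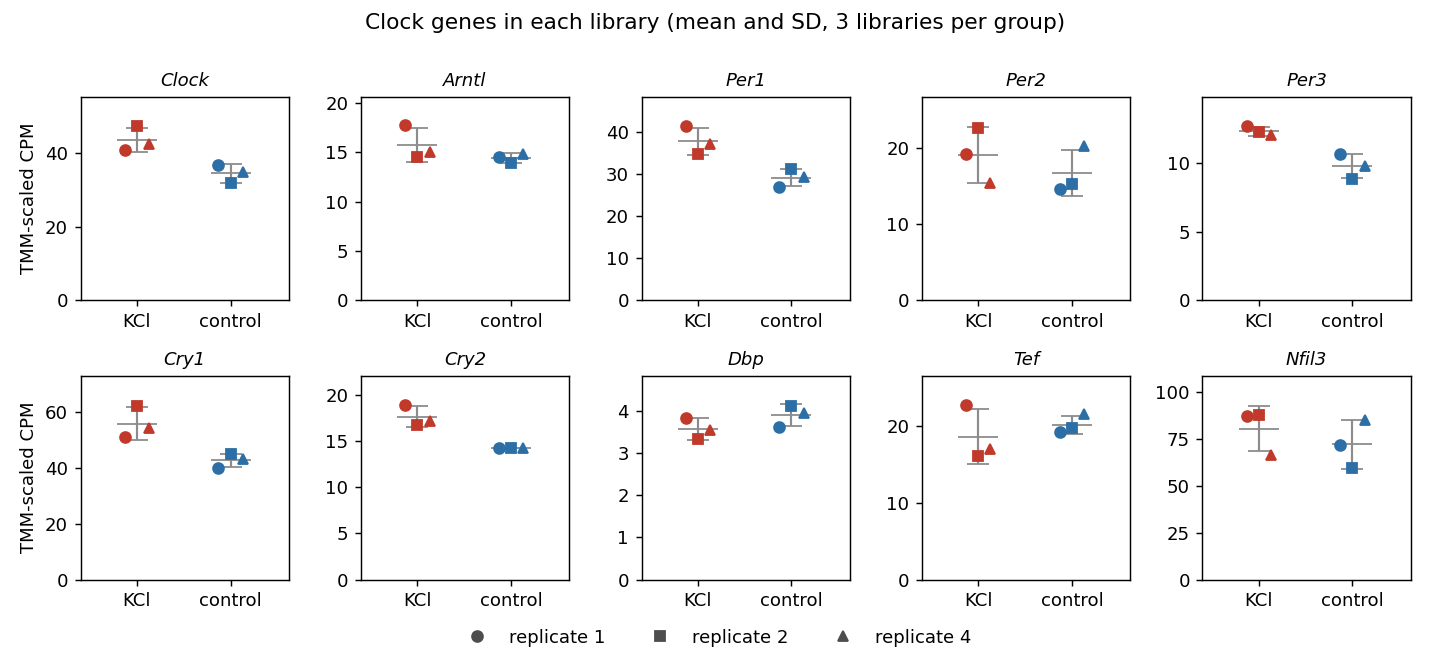
TMM-scaled CPM of each clock gene in each library, KCl left and control right, with grey bars for the mean and SD of 3 libraries and markers for the replicate number; all axes start at 0. The groups are separate for Clock, Per1, Per3, Cry1 and Cry2 and overlap for Arntl, Per2, Dbp, Tef and Nfil3.

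The D-box arm gave no call among the 10 genes. Dbp (chr7:45705088-45710203, plus strand), an activator of D-box genes and in many tissues a strongly rhythmic transcript, had 3.83, 3.32 and 3.54 CPM in KCl and 3.62, 4.12 and 3.95 CPM in control. The groups overlapped, and the estimate was -0.13 ± 0.12 with a 95% interval of -0.41 to 0.16 and an adjusted p of 0.613. Dbp rested on 57 to 73 counts per library in KCl and 56 to 90 in control, the fewest of the 10. It shares 539 exon bases, 18% of its exon length, with Sphk2 on the other strand, which had 1329 to 1551 counts in KCl and 1104 to 1520 in control. How strand was treated in the counting is not stated in the sources used here, so reads of the shared bases cannot be told apart.

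Tef (chr15:81802421-81826863, plus strand), which encodes a second activator of the same family, had 22.7, 16.0 and 17.0 CPM in KCl and 19.3, 19.7 and 21.5 CPM in control. KCl 1 was the highest of the 6 and the other KCl libraries were the lowest. Its estimate was -0.11 ± 0.14 with a 95% interval of -0.46 to 0.23 and an adjusted p of 0.65. Nfil3 (chr13:52967209-52981073, minus strand), which encodes the repressor of D-box genes and is needed for natural killer cells to develop, had 87.3, 87.8 and 66.4 CPM in KCl and 71.9, 59.3 and 85.3 CPM in control. As for Per2, replicates 1 and 2 were higher in KCl, with a log2 ratio of 0.42, and replicate 4 was lower, at -0.36. The pooled estimate for Nfil3 was 0.16 ± 0.17 with a 95% interval of -0.24 to 0.56 and an adjusted p of 0.601, and without replicate 4 it was 0.42 with an adjusted p of 0.108.

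Set against replicates 1 and 2, replicate 4 thus divided the 10 genes. For Per1, Per3, Cry1, Cry2 and Clock the log2 ratio of KCl to control was 0.32 to 0.42 over replicates 1 and 2 and 0.27 to 0.34 in replicate 4. These 5 genes were called from the same libraries, which favours genes with like ratios. Replicate 4 was also not independent of the others, so its ratios are not a second measurement. Per2 and Nfil3 had opposite signs. Arntl had 0.18 over replicates 1 and 2 and 0.02 in replicate 4, Tef -0.01 and -0.34, and Dbp -0.11 and -0.16. Of the 8 neutrophil markers, 5 also had opposite signs: Retnlg (1.64 over replicates 1 and 2, -1.40 in replicate 4), Cxcr2 (1.38 and -1.19), Ly6g (0.91 and -0.90), Mmp8 (0.84 and -0.75) and S100a8 (0.14 and -0.45). Opposite signs were not particular to neutrophil markers. Examples elsewhere were Ccr3 (0.75 and -0.74), Siglecf (0.35 and -0.33), Cd79a (0.63 and -0.59) and Errfi1 (1.64 and -1.33), and in the reverse order Gata2 (-0.30 and 0.31). Other listed genes kept 1 sign, and the share over all genes was not counted. The part of any of these genes in the Per2 and Nfil3 values was not tested.

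**Figure D3:**
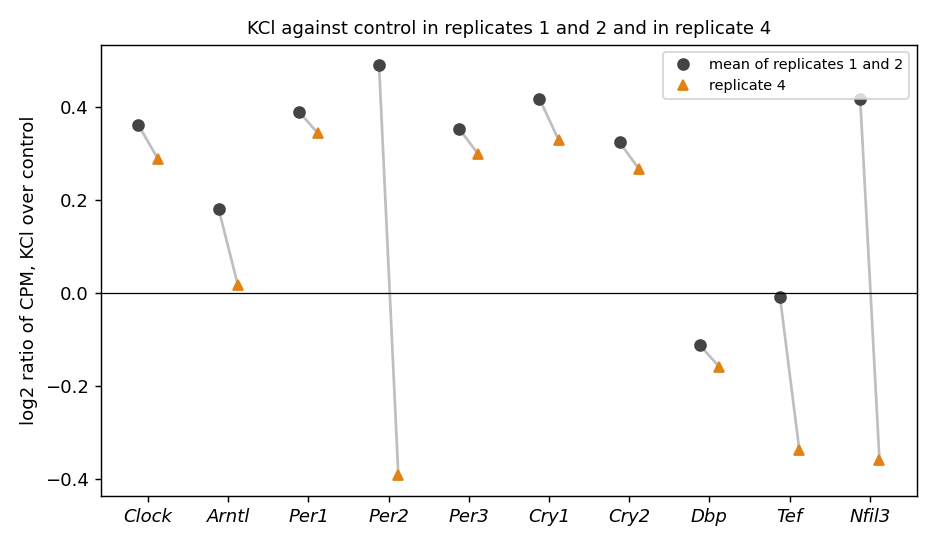
Log2 ratio of CPM in KCl over control for each clock gene, taken over replicates 1 and 2 (circles) and in replicate 4 (triangles), joined by a grey line. The pairs lie close together for the 5 genes called higher, between 0.27 and 0.42, and lie on opposite sides of 0 for Per2 and Nfil3. The calls were made from these same libraries, and replicate 4 was not independent of the others.

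The gene nearest in pattern to each clock gene was the tested gene of mean CPM at least 10 with the highest Pearson correlation of log2 CPM over the 6 libraries. Cry1 was nearest to Gda (r = 1.00), Per1 to Slfn8 (r = 0.999), Per3 to Ccdc32 (r = 0.999), Cry2 to Tapbp (r = 0.999) and Clock to Acsl1 (r = 0.999), each among 9286 genes compared. These values describe 6 libraries that share the group difference and the dependence of replicate 4.

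Some partners of the core loop were called with log2 fold changes above those of any of the 10 clock genes, and others did not pass. Of the 10 partners tested, 5 were called higher and 0 lower, with 2 lower at an unadjusted p under 0.05 in edgeR's quasi-likelihood test and 1 called lower by DESeq2. Over all tested genes, 12.4% were called higher and 10.5% lower, 16.4% were lower at that unadjusted p and DESeq2 called 9.56% lower. The median log2 fold change of the 10 was 0.34. Among the ROR and REV-ERB receptors, Rora, which encodes an activator of Arntl, had 9.24, 9.15 and 8.52 CPM in KCl and 2.19, 1.92 and 2.47 CPM in control. This was a log2 fold change of 2.04 ± 0.12 (adjusted p = 0.00159), with the groups far apart. Nr1d1, which encodes REV-ERB alpha, a repressor of Arntl, had 4.04, 2.92 and 3.38 CPM in KCl and 1.38, 1.65 and 1.69 CPM in control, a log2 fold change of 1.13 ± 0.18 (adjusted p = 0.00842). Its counts were 50 to 77 per library in KCl and 24 to 36 in control, and 8.55% of its exon bases overlap Thra on the other strand. Nr1d2, which encodes REV-ERB beta, had 13.1, 11.2 and 11.6 CPM in KCl and 8.90, 7.14 and 8.12 CPM in control, or 0.57 ± 0.11 (adjusted p = 0.016). The activator Rora and both repressors were therefore higher in KCl beside Arntl, which did not pass.

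Bhlhe41 (also called Dec2), which encodes a repressor that competes for E-boxes, had 30.8, 36.6 and 30.4 CPM in KCl and 9.52, 11.04 and 11.8 CPM in control. The lowest KCl library was well above the highest control library, with a log2 fold change of 1.60 ± 0.12 (adjusted p = 0.00232). Its relative Bhlhe40 (Dec1), far more abundant by count, had 518, 459 and 472 CPM in KCl and 612, 535 and 582 CPM in control. The groups were separate in the opposite direction but the test did not pass, at -0.26 ± 0.07 with an adjusted p of 0.0556, while DESeq2 gave an adjusted p of 0.019. Hlf, which encodes the D-box activator known from blood stem cells, had 6.93, 4.84 and 6.20 CPM in KCl and 1.19, 3.53 and 2.26 CPM in control. Its log2 fold change was 1.36 ± 0.37 (adjusted p = 0.0445), and the call was lost when any library other than control 2 was left out. Cipc, which encodes an inhibitor of CLOCK, stood at 0.09 ± 0.12, and Npas2, which encodes a factor that can stand in for CLOCK, at -0.13 ± 0.47. Arntl2, a paralog of Arntl chosen after its values were seen, was at 0.47 to 0.68 CPM in KCl and 0.82 to 1.27 CPM in control and did not pass, with an adjusted p of 0.0517.

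Rora, Nr1d1 and Bhlhe41 kept their calls when any single library was left out, and Nr1d2 lost its call without KCl 4 (adjusted p = 0.054) or control 4 (adjusted p = 0.061). Without both libraries of replicate 4, Rora had an adjusted p of 0.0432 and Bhlhe41 of 0.0429, and they were the only partners still called. The promoter stretches of Bhlhe41, Nr1d1 and Hlf are shown because these are the called partners that held a match. Bhlhe41 had an E-box at -153, where 21 bases of the stretch fall in its own annotated exon, and Nr1d1 an E-prime box at -28, where the stretch ends just before the start, as does that of Hlf, with a cyclic AMP response element at -9. Rora and Nr1d2, also called higher, held none of the motifs, and among the partners that did not pass Ciart held E-boxes at -116, -58 and -44 and Cipc an E-box at -17. The stretches are chr6:145865538-145865603 for Bhlhe41, chr11:98775378-98775435 for Nr1d1 and chr11:90390918-90390956 for Hlf, all on the minus strand, again from RefSeq on GRCm38.p6.
Bhlhe41: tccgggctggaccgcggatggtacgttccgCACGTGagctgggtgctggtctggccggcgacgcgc
Nr1d1: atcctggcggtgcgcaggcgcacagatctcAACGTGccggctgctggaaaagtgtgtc
Hlf: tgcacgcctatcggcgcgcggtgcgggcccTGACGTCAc

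**Figure D4:**
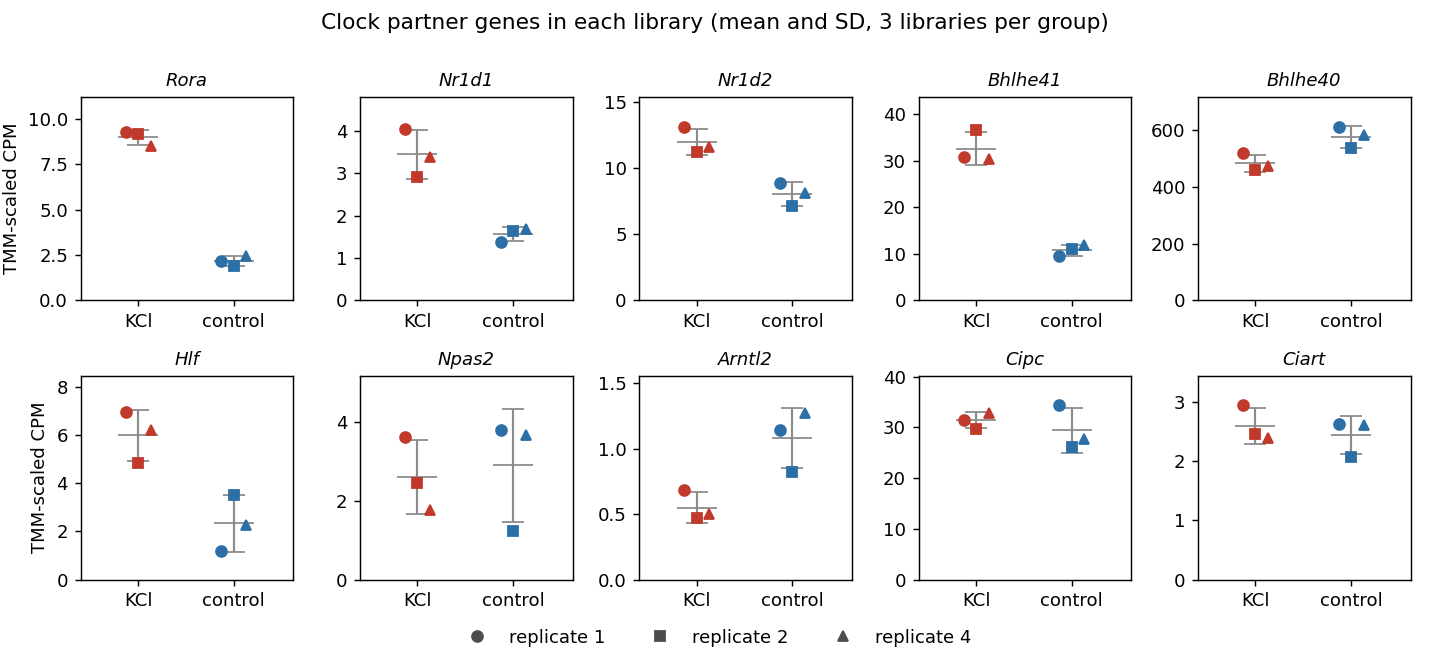
TMM-scaled CPM of the 10 tested clock partners in each library, KCl left and control right, with grey bars for the mean and SD of 3 libraries; all axes start at 0. Rora, Nr1d1, Nr1d2, Bhlhe41 and Hlf are higher in every KCl library than in any control library, while Bhlhe40 and Arntl2 lie lower without passing the test.

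Of 17 listed genes whose products modify, degrade or bind clock proteins, 16 were tested, and 1 was called higher and 4 lower. The shares called over all tested genes were 12.4% higher and 10.5% lower. Csnk1e, which encodes casein kinase 1 epsilon, a kinase of the Period proteins, rose by 0.44 ± 0.06 on the log2 scale (adjusted p = 0.00499), with 58.7, 57.3 and 55.1 CPM in KCl and 42.8, 40.3 and 43.0 CPM in control. Btrc, which encodes the F-box protein that marks phosphorylated Period proteins for degradation, had 11.9, 13.6 and 12.9 CPM in KCl and 20.1, 18.1 and 19.0 CPM in control, at -0.57 ± 0.08 (adjusted p = 0.00661). Both kept their calls when any single library was left out but lost them without both libraries of replicate 4, where Csnk1e was at 0.48 (adjusted p = 0.0726) and Btrc at -0.59 (adjusted p = 0.0892), or of replicate 1. The deubiquitinase gene Usp7 (-0.22 ± 0.04, adjusted p = 0.0155), the kinase gene Csnk1a1 (-0.19 ± 0.04, adjusted p = 0.0224) and Nono (-0.24 ± 0.06, adjusted p = 0.0375), whose product binds Period proteins, were lower by small amounts. Leaving out KCl 1, KCl 4 or control 4 ended the calls of all 3, and leaving out KCl 2 or control 1 also ended that of Nono. Of the 11 that did not pass, the most abundant were Ddb1 (-0.06 ± 0.09), Sfpq (-0.13 ± 0.05) and Csnk1d (-0.10 ± 0.06), the last encoding the casein kinase 1 delta that acts beside epsilon. The median of the 16 was -0.08.

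Of 10 genes listed as clock outputs, 3 were called higher and 0 lower, beside 12.4% and 10.5% of all tested genes. None of the outputs was lower at an unadjusted p under 0.05 in edgeR's quasi-likelihood test or called lower by DESeq2. For all tested genes these shares were 16.4% and 9.56%. Nampt, which encodes the rate-limiting enzyme of NAD salvage and is a known target of CLOCK and ARNTL, had 270, 307 and 271 CPM in KCl and 185, 198 and 200 CPM in control. Its log2 fold change was 0.54 ± 0.07 (adjusted p = 0.00538), with the groups separate, and it stayed called when any single library was left out but not without both libraries of replicate 4 (adjusted p = 0.0703). Tspan4, a tetraspanin gene, stood at 1.09 ± 0.24 (adjusted p = 0.0216) and Por, which encodes cytochrome P450 reductase, at 0.22 ± 0.05 (adjusted p = 0.0314). Tspan4 lost its call without any library other than KCl 2 or control 2, and Por without any library other than control 2. The most abundant of the 7 that did not pass were Klf10 (0.09 ± 0.08), Lonrf3 (0.12 ± 0.12) and Klf9 (0.08 ± 0.10), and the median of the list was 0.17.

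The 10 listed inducers are genes of the cyclic AMP, glucocorticoid and hypoxia routes that are known to act on Period genes or to mark those routes. Sgk1, which encodes a kinase induced by glucocorticoids and by osmotic and salt stress, rose by 0.88 ± 0.12 on the log2 scale (adjusted p = 0.00596), with 111, 137 and 115 CPM in KCl and 56.8, 71.9 and 67.9 CPM in control. Without replicate 4 its adjusted p was 0.0726. Fkbp5, a glucocorticoid receptor co-chaperone gene, stood at 0.23 ± 0.06 (adjusted p = 0.0468), a call that was lost without any library other than control 2. None of the inducers was called lower by edgeR's quasi-likelihood test, 2 were lower at an unadjusted p under 0.05 and DESeq2 called 1 lower. For all tested genes these shares were 10.5%, 16.4% and 9.56%, and 12.4% were called higher. Of the 8 that did not pass, the most abundant were Hif1a (0.08 ± 0.08), Creb1 (-0.06 ± 0.13) and Crtc2 (-0.10 ± 0.04), and the list's median was 0.00986. Errfi1, chosen after its values were seen, had 32.1, 35.2 and 12.5 CPM in KCl and 11.5, 10.2 and 31.5 CPM in control, and was called higher (adjusted p = 0.0355) only without replicate 4; in replicate 4 itself its level was lower in KCl than in control. Without replicate 4 the calls on these 4 lists came to 3 higher, Rora, Bhlhe41 and Errfi1, and 0 lower. Of all genes, 0.333% were called higher and 0.126% lower there.

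**Figure D5:**
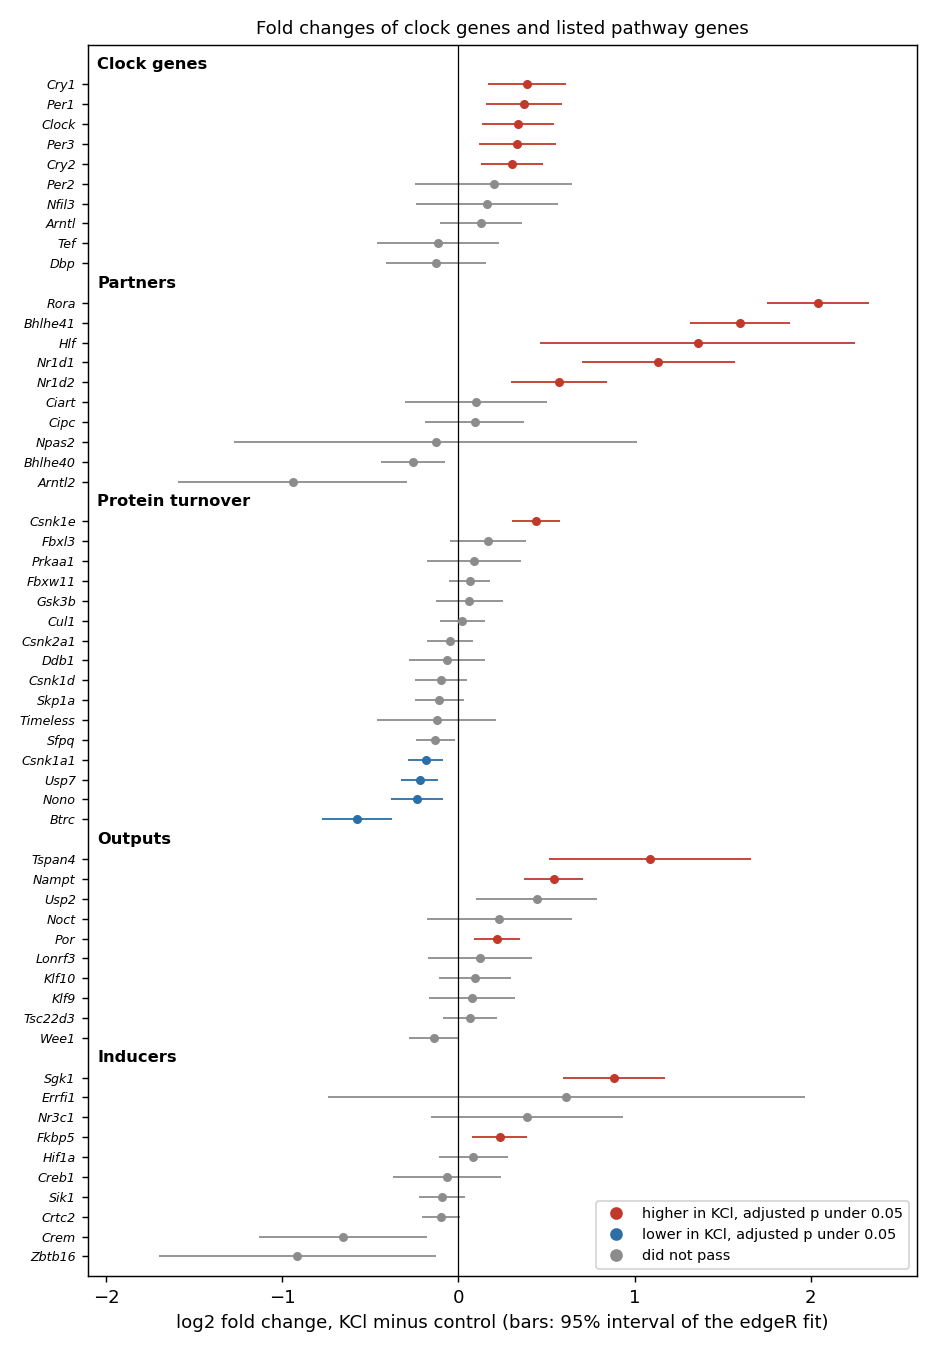
Log2 fold change (KCl minus control) of the 10 clock genes and of every tested gene of the 4 pathway lists, with 95% intervals of the edgeR fit; red and blue mark genes called higher and lower in KCl, grey those that did not pass. The clock genes lie between -0.13 and 0.39, while Rora, Bhlhe41, Hlf, Nr1d1 and Tspan4 lie above 1.

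Markers of the cell types that such cultures can hold differed between the groups. Of 8 eosinophil markers 5 were called lower and 0 higher, of 7 tested dendritic cell markers 4 lower and 0 higher, of 8 monocyte and macrophage markers 3 higher and 0 lower, and of 8 neutrophil markers 1 higher and 0 lower. Of 5 basophil and mast cell markers 1 was called lower, of 4 tested lymphocyte markers 1 higher, of 5 tested stromal and endothelial markers 1 higher, and of 2 tested erythroid and megakaryocyte markers 0. The shares called over all tested genes were 12.4% higher and 10.5% lower. Without replicate 4, the calls left on these lists were 4 eosinophil markers lower and 1 monocyte and macrophage marker higher. Of all genes, 0.126% were called lower and 0.333% higher there. The summed CPM of 8 eosinophil markers was 961 to 1117 in KCl and 2351 to 2582 in control, that of 8 dendritic cell markers 3614 to 4438 in KCl and 4743 to 6562 in control, and that of 8 monocyte and macrophage markers 2223 to 2471 in KCl and 1528 to 1876 in control. Neutrophil markers (8 genes) summed to 11525.9 to 17688 CPM in KCl and 9629 to 11525.1 in control, so that the groups all but touched. No listed marker present in the table was at 0 in all libraries. The other marker sums overlapped between groups, at 258 to 293 CPM in KCl and 286 to 330 in control for basophils and mast cells, 11.6 to 17.5 in KCl and 8.92 to 11.9 in control for lymphocytes, 119 to 133 in KCl and 97.4 to 153 in control for erythroid cells and megakaryocytes, and 75.6 to 79.8 in KCl and 77.2 to 80.4 in control for stromal and endothelial cells. In these bulk samples, a change in the share of cells that carry a clock transcript and a change in the amount per cell cannot be told apart. The part of the marker shifts in the clock gene differences was not tested.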

How the data were processed

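RNA sequencing libraries of cultured bone marrow cells, 6 in all, were compared, 3 with added KCl and 3 without. Total RNA (Trizol) was sequenced by Illumina NovaSeq, per the labels' protocols. The submitters' processing notes name the build mm10 and the tools HISAT2 2.0.4, StringTie 1.3.3b and edgeR. Which program counted reads, and on which strand, is not given in the sources used here. The authors deposited whole-number read counts and FPKM for 19162 genes. Tests used the deposited counts and edgeR 4.0.16 in R 4.3.3: filterByExpr (minimum count 10, minimum total 15) kept 13326 genes, TMM scaled the libraries, and the robust quasi-likelihood test of group was 2-sided, with Benjamini-Hochberg adjustment over all tested genes at 0.05. Standard errors were taken from the fold change and its F statistic. The deposited FPKM served only to set levels of different genes side by side, without a test.

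All 10 clock genes were named. From the lists of partners, turnover genes, outputs and inducers, every called gene and at most 3 uncalled genes of highest mean CPM were named. The clock genes and the lists were chosen with earlier results of these data known, so their counts are descriptions beside those of all genes. Tried beside this were scaling by RLE, upper quartile or library size, testing without a filter or from a mean CPM of 5, DESeq2 1.42.0, limma-voom (limma 3.58.1), a replicate block, replicate 4 as a batch term, and each library or replicate number left out. Gene coordinates came from GENCODE M21 on mm10. Library totals of 14118724 to 21694831 limit the precision of weakly expressed genes such as Dbp.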

Additional observations from a re-analysis of the deposited data

How the results depend on the processing

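Of the 10 clock genes, Nfil3 was the only one whose estimate changed sign, to -0.030 without replicate 2, and scaling changed no direction. The number called higher, 5, was 2 under upper-quartile scaling, 3 under library-size scaling, without a filter or by DESeq2, and 0 with replicate 4 as a batch term; it was 0 to 2 when libraries were left out. RLE scaling, limma-voom and the filter at a mean CPM of 5 left it at 5. Per3 and Cry2 lost their calls under upper-quartile scaling (log2 fold changes 0.29 and 0.26), library-size scaling (0.31 and 0.28), no filter (0.31 and 0.28) and DESeq2 (0.33 and 0.30), and Per1 under upper-quartile scaling (0.33, adjusted p = 0.0502). With the batch term, Per1 was at 0.37, Per3 at 0.33, Cry1 at 0.39, Cry2 at 0.31 and Clock at 0.34, all without a call. Over the leave-outs the log2 fold change ran from 0.25 to 0.48 for Per1, 0.26 to 0.39 for Per3, 0.30 to 0.45 for Cry1, 0.24 to 0.34 for Cry2 and 0.22 to 0.42 for Clock. The cause was not tested, though each leave-out also tests fewer samples.

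With the replicate block, Cry1 alone of the 10 stayed called (log2 fold change 0.38, adjusted p = 0.0437), and Per1 (0.37), Per3 (0.34), Cry2 (0.30) and Clock (0.34) did not. The block also gave 7 higher and 2 lower calls on the pathway lists and 978 higher and 700 lower over the whole table. Deviations of same-numbered libraries from their group means correlated at 0.0234 for replicate 1, -0.0555 for replicate 2 and -0.746 for replicate 4. No sample correlated best with the sample of its own number. KCl 4 and control 4 were not independent of the other libraries, so these correlations cannot show whether the numbers pair the samples.

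The lists had 11 higher and 4 lower calls, against 7 lower under upper-quartile scaling and 6 higher and 1 lower with the batch term; leave-outs gave 3 to 11 higher and 0 to 7 lower. Over the whole table, 1655 genes were higher and 1402 lower, against 1422 and 1735 under upper-quartile scaling, 922 and 651 with the batch term, 45 to 1495 and 17 to 1356 over the leave-outs, the lowest without replicate 4. Without replicate 1 there were 466 and 297, without KCl 4 954 and 551, and without control 4 852 and 587. Npas2 turned positive under limma-voom (0.017) and in leave-outs (-0.51 to 0.27), as did Creb1 (-0.23 to 0.12) and Ddb1 (-0.20 to 0.0064), and Klf9 turned negative in 1 (-0.035 to 0.20). Dbp rested on the fewest counts, 56 to 90 per library, with an interval of -0.41 to 0.16, and no difference between clock genes was tested.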
